A study of Mus musculus with 80 samples.

Results

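Ribosome-bound RNA pulled down from Cx3cr1-expressing cells (TRAP, translating ribosome affinity purification) was compared with the homogenate RNA saved before the pull-down (Input) in brains that had been dissociated by mechanical force alone in the cold, the Dounce preparation. The comparison takes every library whose title ends in DouncePos or DounceInput and pairs the libraries by the animal number in the title. It holds 8 of the 80 libraries of the series and of the 32 libraries in the table of the cell preparation experiment. There are 4 Dounce-Input and 4 Dounce-TRAP libraries, 1 of each from animals 179, 180, 181, and 182, and values of the 4 animals are given in that order throughout. All genes of the table were examined.

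Every mouse was of the genotype Cx3cr1(Jung)-cre/Ert2+;NuTRAP+ and had received tamoxifen by daily intraperitoneal injection at 100 mg/kg from about 3 months of age, the Input and TRAP fractions alike. The other 24 libraries of the table come from whole tissue (Tissue) and from enzymatically dissociated cells without or with transcription and translation inhibitors [Cell (-) Inhibitors and Cell (+) Inhibitors]. None of their animals gave a Dounce library, and the Cell (-) and Cell (+) suspensions came from the same 4 animals. No inhibitors were listed for the Dounce preparation, and the suspension went unsorted into homogenization. There was no library from a Cre-negative animal in the table, so RNA that binds the beads without the tag was not measured. The Cre is induced by tamoxifen in cells that express Cx3cr1 at that time, which include macrophages at the borders of the brain as well as microglia. Circulating Cx3cr1-expressing cells are also tagged at first. The paper reports that eGFP in blood myeloid cells fell to the level of Cre-negative controls after a wait, and that brains were collected after that wait.

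In the NuTRAP allele, Cre activity places eGFP on the ribosomal protein L10a and a second tag on the nuclear envelope protein RanGAP1. Antibody against GFP then retrieves the ribosomes of the recombined cells with the messenger RNA bound to them, while the Input carries the RNA of every cell in the suspension. Microglia, the resident macrophages of brain tissue, are known for a resting state marked by purinergic receptors, complement component C1q, and lysosomal enzymes, and they take up an activated transcriptional state readily when removed from the brain. A gene can be higher in TRAP than in Input because the tagged cells express it or because its RNA is more heavily loaded with ribosomes, and these cannot be told apart here. In bulk samples, fewer cells of a type and less RNA per cell cannot be told apart either.

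Libraries held 5107600 to 9751830 gene-level counts in Dounce-Input and 2471450 to 4724540 in Dounce-TRAP, and within each animal the TRAP library was the shallower. Levels are given as CPM, counts per 1000000 counts of the library, scaled by the trimmed mean of M values method. The 4 Input libraries resembled each other closely, with correlations of log2 CPM across genes of 0.957 to 0.979. The TRAP libraries ranged from 0.881 to 0.924 among themselves, and correlations between an Input and a TRAP library were 0.712 to 0.777. Fraction was therefore the larger division among the 8 libraries. These are correlations across genes, which are not independent replicates.

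A gene was called higher or lower in TRAP when the fitted difference exceeded 2-fold at a false discovery rate under 0.1 in edgeR's quasi-likelihood test with animal as a block. Of 14338 genes with enough counts, 2924 (20.4%) were higher in Dounce-TRAP and 3632 (25.3%) were lower, so that 45.7% were called in one direction or the other. In all 4 animals, 4459 genes (31.1%) were higher in the TRAP library and 5353 (37.3%) were lower. The median log2 difference of all genes tested was -0.25, and the listed genes are to be read against that value. The split of called genes depends on scaling: 44.6% of them were higher here, against 31.1% with total counts alone and 32.4% in a limma fit to the log2 values normalized by the authors. Scaling by total counts lowered the median of all genes by 0.32. Microglial markers lie far above the bulk of genes in the plot of all genes by level, and blood-cell genes lie far below it.

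**Figure D1:**
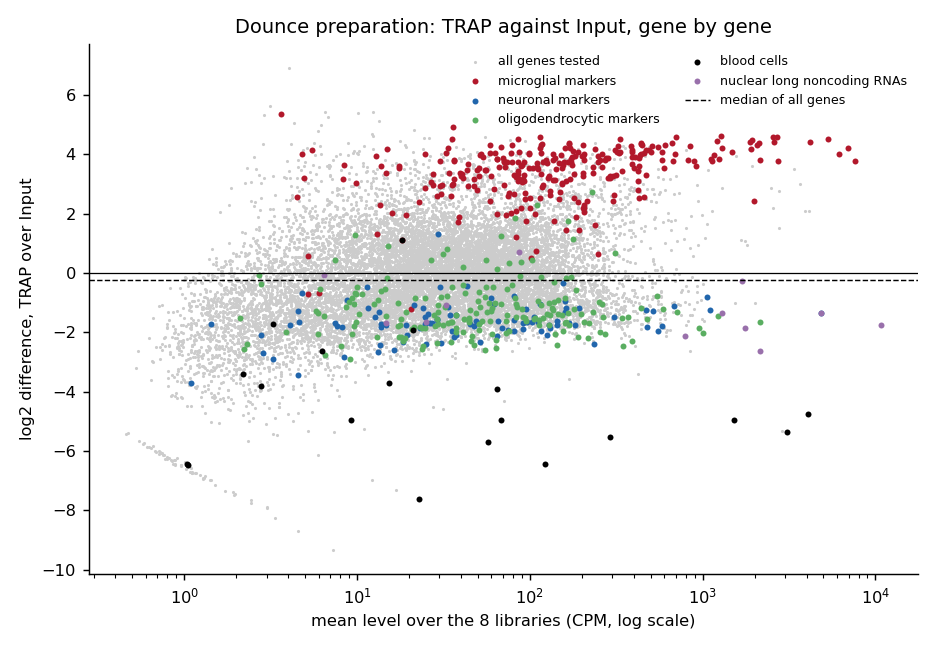
Each point is 1 gene, with its mean level over the 8 Dounce libraries (CPM, log scale) on the x axis and its fitted log2 difference of TRAP over Input on the y axis; colours mark 5 gene lists and the dashed line is the median of all genes (-0.25). Microglial markers form a band near their median of 3.60, neuronal and oligodendrocytic markers lie mostly below 0, and the diagonal tail at the lower left holds genes with next to no TRAP counts, whose fitted values depend on the prior count.

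The driver gene and the tagged genes were examined first. Cx3cr1, the fractalkine receptor whose promoter drives the Cre, stood at 312, 253, 245, and 358 CPM in Dounce-Input and at 4272, 3843, 3543, and 4467 CPM in Dounce-TRAP. The lowest TRAP library was far above the highest Input library, and the groups did not overlap. The log2 difference was 3.80 ± 0.11 (SE derived from the fit to 4 animals), or 13.9-fold (adjusted p = 3.02e-13). Cx3cr1 spans chr9:120048683-120068296 in the mm10 coordinates of the table. Rpl10a, which encodes the ribosomal protein carrying eGFP in the tagged cells, rose from 61.6, 50.1, 50.7, and 57.3 CPM to 228, 170, 201, and 206 CPM, a 3.65-fold difference (adjusted p = 8.25e-09). Rangap1, whose product carries the nuclear tag, was at 84.7 to 94.5 CPM in Input and at 411, 394, 221, and 378 CPM in TRAP, a 3.89-fold difference (adjusted p = 4.91e-08). Both tagged genes were higher in every animal, with animal 181 the lowest for Rangap1. Whether transcripts of the transgene were counted toward Rpl10a or Rangap1 was not tested.

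Nearly all microglial genes were higher in TRAP. Of 277 tested genes on the list of microglial markers, 270 were called higher and 1 lower, with a median log2 difference of 3.60 against -0.25 for all genes. In the single animals the median was 3.52, 3.63, 3.54, and 3.53. A shorter list of homeostatic microglial genes moved as a whole, with 24 of 24 higher and a median of 4.24. Of 113 genes that the paper kept as microglial markers because published lists shared them, 112 were higher, with a median of 3.87. Sgk1 was not called. The published lists include a list from ribosomal tagging of microglia, so these genes were not chosen independently of the TRAP method. The single marker called lower was Nfkbiz, an inducible nuclear regulator of NF-kappaB, at a log2 difference of -1.23, a call that was lost without animal 179 (-0.91).

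Csf1r, the receptor for colony stimulating factor 1 on which microglia depend for survival, was at 533, 500, 266, and 537 CPM in Input and at 10977, 11553, 7374, and 10834 CPM in TRAP. Animal 181 was the lowest in both fractions, and the ranges of the fractions were far apart (22.7-fold, adjusted p = 2.87e-13). Olfml3, which encodes a secreted olfactomedin-like protein, had the largest difference of the homeostatic genes at 24.5-fold, from 72.5 to 126 CPM in Input to 2179 to 2936 CPM in TRAP.

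The purinergic receptor gene P2ry12, the surface protein gene Tmem119, and the transcription factor gene Sall1 fell outside the rule for named genes and were picked after their values were seen because they are common microglial identifiers. P2ry12 was 17.9-fold higher in TRAP, from 239, 187, 140, and 257 CPM to 4021, 3785, 2799, and 3875 CPM. Tmem119 was 22.1-fold higher, from 115 to 210 CPM in Input to 3404 to 4051 CPM in TRAP. Sall1 was 9.50-fold higher, and its TRAP levels of 1110, 1184, 653, and 1051 CPM were lowest in animal 181. None of these genes overlapped between fractions. The smallest differences of the homeostatic list were those of Ptprc, which encodes CD45, at log2 2.42, and Sparc, a matrix protein gene, at 3.00.

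**Figure D2:**
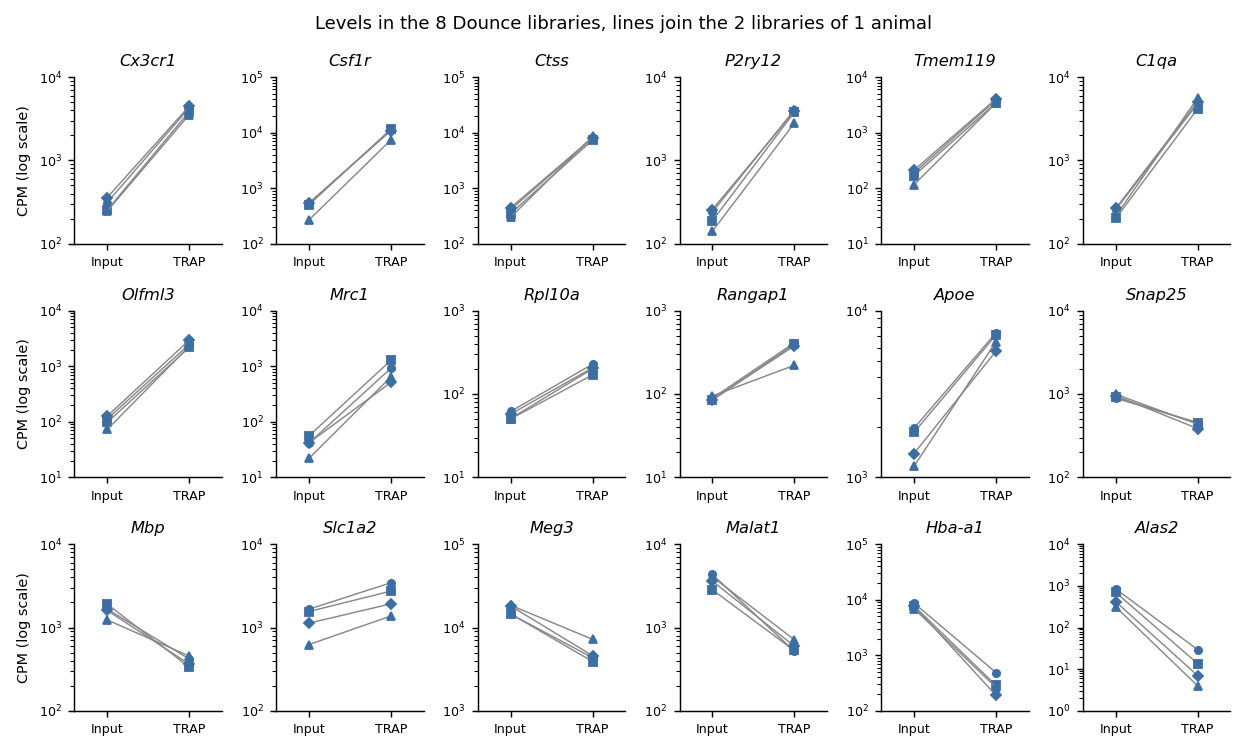
Levels (CPM, log scale) of 18 genes in the 8 Dounce libraries, with Input at the left and TRAP at the right of each panel, 1 marker shape per animal and a line joining the pair of libraries of 1 animal. The lines of Cx3cr1, Csf1r, Ctss, and the other microglial genes rise in all 4 animals, those of Snap25, Mbp, Meg3, Malat1, Hba-a1, and Alas2 fall in all 4, and Slc1a2 rises in all 4 by a fitted 1.93-fold.

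Measured as a share of the library, microglial markers made up 1.87, 1.64, 1.42, and 1.82% of the counts in Dounce-Input and 18.9, 17.9, 17.1, and 19.0% in Dounce-TRAP. The 24 homeostatic genes alone took 0.496 to 0.734% of Input and 8.11 to 9.0% of TRAP. Animal 181 had the lowest marker share in both fractions. The TRAP shares differed from each other by far less than they differed from any Input share.

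**Figure D3:**
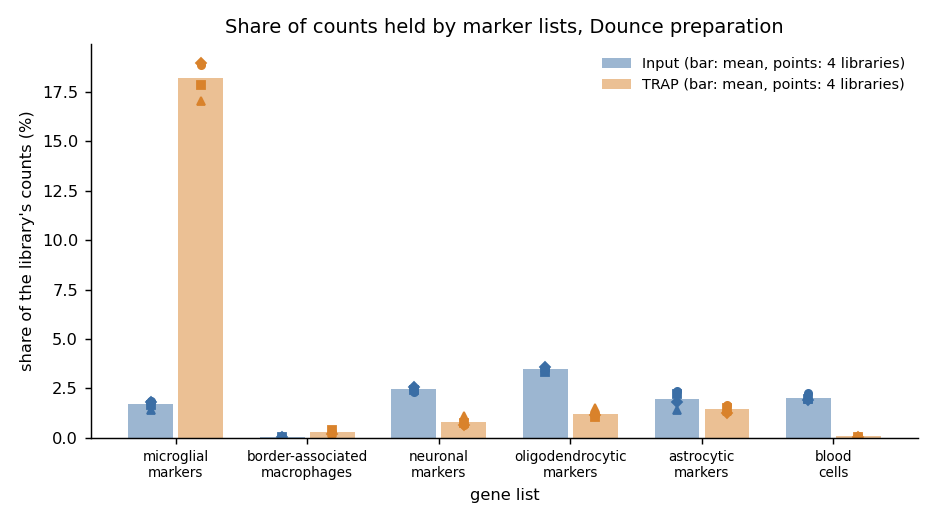
Share of each library's counts (%) held by 6 gene lists in Dounce-Input and Dounce-TRAP, with bars at the mean of 4 libraries and 1 point per library. Microglial markers rise from under 2% of Input to 17.1 to 19.0% of TRAP, while the neuronal, oligodendrocytic, and blood-cell shares are lower in every TRAP library than in every Input library.

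Complement genes and receptors for antibody were higher almost without exception. Of 13 tested, 12 were called higher (median log2 4.08). C1qa, a chain of the C1q recognition molecule that opens the classical complement pathway, went from 257, 201, 214, and 265 CPM to 4835, 4161, 5638, and 5067 CPM, a 21.0-fold difference (adjusted p = 3.02e-13). The partner chains C1qb and C1qc were 20.8-fold and 21.2-fold higher, and Itgam, the CD11b integrin chain used to recognize microglia, was 15.6-fold higher. C3, the complement component that C1q activity leads to, was the exception, at 5.17 to 12.0 CPM in Input and 4.11 to 14.6 CPM in TRAP with overlapping groups (log2 0.07 ± 0.54 SE, adjusted p = 0.923).

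All 16 lysosomal genes were higher, with a median of 3.51. Cst3, a secreted inhibitor of cysteine proteases, was the most abundant of them at 861 to 1156 CPM in Input and 12358 to 15736 CPM in TRAP. Ctss, a cysteine protease, was 21.5-fold higher and Ctsd, an aspartic protease, 16-fold. Ctss was at 299 to 444 CPM in Input and 7347 to 8535 CPM in TRAP, without overlap. Genes of antigen presentation followed, with 11 of 12 higher (median 2.78), among them B2m, the light chain of class I molecules, at 12.0-fold and Cd74, the class II invariant chain, at 5.94-fold. The exception was Ciita, the class II transactivator, at log2 0.12.

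Most genes that mark disease-associated microglia were higher. Of 17 tested, 12 were higher (70.6%, against 20.4% of all genes, median 2.44). Fabp5 and Lpl were lower (11.8%, against 25.3% of all genes), and Csf1, Lgals3, and Spp1 were not called. Apoe, the lipid carrier made by astrocytes and by microglia, rose 4.27-fold, from 1969, 1857, 1163, and 1387 CPM to 7369, 7151, 6512, and 5716 CPM. Trem2, a lipid-sensing receptor, rose 19.7-fold, with 50.7 to 73.3 CPM in Input and 1028 to 1287 CPM in TRAP. Cst7, a cystatin of low abundance, was at 0.642 to 1.48 CPM in Input and at 19.6, 11.9, 33.9, and 10.2 CPM in TRAP. Lpl, a lipoprotein lipase, was at 437, 359, 758, and 975 CPM in Input and 357, 181, 325, and 222 CPM in TRAP, without overlap (log2 -1.15 ± 0.21 SE, adjusted p = 1.55e-04). The fatty acid binding protein gene Fabp5 was called lower at log2 -1.45, although animal 181 went the other way with 17.6 CPM in Input and 32.6 CPM in TRAP. Each of these calls rested on 1 animal: Lpl was at -0.84 without animal 182 and Fabp5 at -0.90 without animal 180, and neither was then called.

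Macrophages of the brain's borders also carry the driver, and their genes were higher too. All 13 tested genes of border-associated macrophages were called higher (median 4.37). Their share of counts was 0.020, 0.021, 0.009, and 0.014% of Input and 0.279, 0.381, 0.213, and 0.201% of TRAP, so that they held a small part of the TRAP RNA beside the microglial share. Mrc1, the mannose receptor, was at 41.2, 55.4, 21.8, and 41.6 CPM in Input and at 917, 1273, 640, and 509 CPM in TRAP (20.6-fold, adjusted p = 8.56e-12). Lyve1, a hyaluronan receptor, was at 0.697 to 4.80 CPM in Input and at 75.2, 103, 59.5, and 28.4 CPM in TRAP, with animal 182 the lowest. Cbr2, a carbonyl reductase, was 30.0-fold higher, Folr2, a folate receptor, 27.9-fold higher, and Siglec1, a sialic acid receptor, 24.5-fold higher, and all were under 5 CPM in every Input library. Cbr2, Folr2, and Siglec1 were among the 12 largest increases over all genes at 20 CPM or more in the higher fraction. Microglial and border macrophage lists share 4 genes.

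Other genes among those 12 largest increases were Fam167b, Dusp27, Gp9, Esr1, Slc15a3, Selplg, Laptm5, and Stab1, besides Olfml3. Selplg, the P-selectin ligand, was at 142 to 256 CPM in Input and 4541 to 5936 CPM in TRAP (24.0-fold), and Laptm5, a lysosomal membrane protein of blood-derived lineages, at 158 to 251 CPM and 4583 to 5252 CPM (23.8-fold). Esr1, the estrogen receptor alpha gene, was at 6.79, 2.77, 2.61, and 6.15 CPM in Input and at 131, 108, 78.9, and 104 CPM in TRAP (24.2-fold, adjusted p = 1.72e-10). Its groups did not overlap. Dusp27 was lowest in animal 181, at 5.29 CPM in TRAP against 28.4 to 40.6 CPM in the other animals.

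Blood genes made the opposite movement. Of 19 tested blood-cell genes, 18 were lower and 1 was higher (median -4.95). Their share of counts was 2.26, 1.96, 1.95, and 1.92% in Dounce-Input and 0.087, 0.048, 0.054, and 0.036% in Dounce-TRAP. Hba-a1, an alpha globin gene at chr11:32283672-32284486, fell from 8713, 7765, 6962, and 7781 CPM to 489, 288, 264, and 190 CPM (26.8-fold lower, adjusted p = 1.18e-12). Hba-a1 and Hba-a2 are near-identical, as are the beta globin genes, so the division of reads between copies is uncertain. Alas2, the first enzyme of heme synthesis in red cells, fell from 848, 698, 313, and 418 CPM to 29.4, 13.6, 3.97, and 7.01 CPM (46.1-fold lower).

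Neutrophil genes were also lower and varied between animals in Input. S100a9, a calcium-binding protein of neutrophils, was at 188, 88.9, 580, and 108 CPM in Input and at 2.84, 0.477, 9.26, and 0 CPM in TRAP. Animal 181 had the highest level in both fractions. Camp, Lcn2, and Retnlg, which encode granule and secreted proteins of neutrophils, had no more than 2 counts in any TRAP library, and against a floor of 3 counts a library they were at least 45.4-fold, 33.1-fold, and 24.1-fold lower. The granule protein gene Ltf was 52.4-fold lower. The blood gene that was higher was Ccr2, the chemokine receptor of circulating monocytes, at 18.8, 4.89, 13.9, and 11.2 CPM in Input and 26.9, 19.3, 23.4, and 27.3 CPM in TRAP. Its groups did not overlap, and the difference was 2.17-fold (adjusted p = 0.00914). The call for Ccr2 was lost without animal 180 (log2 0.84), in the fit without pairing by animal (0.99), and with total counts alone (0.80).

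The study's list of macrophage genes outside the microglial set held genes called in both directions. Of 154 tested genes on that list, 27 were higher (17.5%, against 20.4% of all genes), 56 were lower (36.4%, against 25.3%), and 71 were not called (median -0.87). Of its 168 genes in the table, 4 are also on the list of microglial markers. Higher genes included Lyve1, Mrc1, Ms4a7 (log2 4.23), and Cd163, a hemoglobin scavenger receptor, at 13.6-fold, all of which are also on the border macrophage list. Lower genes included Hp, which encodes haptoglobin, at 12.4, 6.83, 27.5, and 11.4 CPM in Input and under 1 CPM in every TRAP library. Lyz2, the macrophage lysozyme, was 7.09-fold higher in TRAP, with 81.6 to 196 CPM in Input and 768 to 991 CPM in TRAP.

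Genes of neurons and of the other glia were lower in TRAP, by less than the blood genes. Of 95 neuronal markers, 81 were lower, 1 was higher, and 13 were not called (median -1.68). Neuronal markers took 2.30, 2.43, 2.56, and 2.58% of Input and 0.657, 0.750, 1.11, and 0.622% of TRAP. The TRAP library of animal 181 was therefore the highest for neuronal markers, and the animal's median difference for the list, -1.12, was the smallest beside -1.79, -1.62, and -2.01. The gene called higher was Igf1, a growth factor that microglia also make, from 11.3 to 24.1 CPM in Input to 25.6 to 67.9 CPM in TRAP, and its call was lost with total counts alone.

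Snap25, a component of the synaptic vesicle fusion machinery, was at 888, 918, 992, and 955 CPM in Input and 453, 447, 433, and 384 CPM in TRAP (2.19-fold lower, adjusted p = 3.73e-07). Gad1, which makes the inhibitory transmitter GABA, was at 198 to 216 CPM in Input and 51.2, 52.0, 67.9, and 58.9 CPM in TRAP (3.60-fold lower). The groups were apart in both cases. Camk2a, the abundant kinase of excitatory neurons, and Slc17a7, the vesicular glutamate transporter, were not called, at log2 -0.60 and -0.49. Slc17a7 was at 530 to 611 CPM in Input and at 394, 331, 731, and 299 CPM in TRAP, so that animal 181 alone had more in TRAP.

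Presynaptic vesicle genes were lower in 12 of 14 cases (median -1.36). Messenger RNAs known to be carried into dendrites were lower in 8 of 13 (median -1.45), with Kif5a, a kinesin motor, 6.18-fold lower and Ddn, a postsynaptic protein gene, 4.65-fold lower. Eef2k, the kinase that slows elongation, was the dendritic-list gene called higher, at 2.28-fold, a call that was lost with total counts alone (log2 0.87) and in the limma fit (0.94). Genes of cerebellar granule and Purkinje cells were lower in 10 of 12 (median -1.69), with the Purkinje calcium buffer Calb1 at 21.1 to 32.8 CPM in Input and 1.90 to 5.60 CPM in TRAP. Cerebellar genes therefore sat at about the level of neuronal genes as a whole.

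Oligodendrocytic markers numbered 129 lower and 7 higher of 191 (4 higher with total counts alone, median -1.39), and all 10 genes of their progenitors were lower (median -1.79). Mbp, myelin basic protein, was 4.06-fold lower (adjusted p = 7.91e-09), with 1235 to 1911 CPM in Input and 336 to 455 CPM in TRAP, without overlap. The progenitor receptor gene Pdgfra was at log2 -2.20. Listed oligodendrocytic genes that were higher included Sema4d, a semaphorin, at log2 2.73 and Rhog, a small GTPase, at 2.29. Oligodendrocytic genes held 3.31 to 3.56% of Input counts and 1.05 to 1.50% of TRAP counts.

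Astrocytic markers were less uniform. Of 136 tested, 85 were lower, 48 were not called, and 3 were higher (median -1.35). The higher genes were Apoe, the adhesion molecule gene Vcam1, and the peroxisomal transporter gene Abcd2, which was at log2 0.97 and not called with total counts alone. Aldoc, an astrocytic aldolase, was at 691, 552, 243, and 399 CPM in Input and 185, 151, 129, and 88.6 CPM in TRAP (3.29-fold lower, adjusted p = 3.40e-07). Gfap, the intermediate filament gene, was 3.53-fold lower.

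A few abundant astrocytic genes did not share the list's direction. Slc1a2, the main glutamate transporter, was at 1659, 1557, 624, and 1129 CPM in Input and at 3449, 2737, 1376, and 1925 CPM in TRAP. It had more in TRAP in every animal while the groups overlapped, and it missed the call by its size (1.93-fold, adjusted p = 1.33e-06). Glul, glutamine synthetase, was at 747 to 1501 CPM in Input and 2219 to 2543 CPM in TRAP (2.12-fold higher, adjusted p = 2.13e-06), but its log2 difference was 0.97 without animal 181, 0.98 among genes with at least 10 counts in every library, 0.84 in the limma fit, and 0.76 with total counts alone, each under the threshold. Slc1a3, the second glutamate transporter, stood at 165 to 429 CPM in Input and 299 to 355 CPM in TRAP, with log2 0.08 ± 0.17 SE. Astrocytic genes as a whole took 1.41 to 2.36% of Input and 1.24 to 1.67% of TRAP, with overlapping ranges.

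Vascular genes were called in both directions. Of 180 endothelial markers, 43 were higher (23.9%, against 20.4% of all genes), 59 were lower (32.8%, against 25.3%), and 78 were not called (median -0.58, but 0.29 among the genes with at least 10 counts in every library), and 55 further genes of that list had too few counts. Among 11 defining endothelial genes, Pecam1 and Kdr were higher (18.2%), Emcn was lower (9.09%), and the rest were not called. Pecam1, the adhesion molecule CD31, was at 7.38 to 11.7 CPM in Input and 42.3 to 64.5 CPM in TRAP (5.76-fold higher). Tgfbr2, a receptor for transforming growth factor beta, was 16.3-fold higher, and its co-receptor gene Eng was 14.3-fold higher. Cldn5, the tight junction claudin of brain endothelium, was at 6.30 to 8.36 CPM in Input and at 0, 9.78, 19.8, and 8.06 CPM in TRAP (log2 -0.08 ± 0.76 SE), and Slc2a1, the endothelial glucose transporter, was at log2 0.13 ± 0.18. Emcn was under 2 CPM in every Input library and had no counts in TRAP, and leaving out any 1 animal ended its call (adjusted p = 0.116 to 0.150). The call for Kdr was lost without animal 180 (log2 1.75, adjusted p = 0.154). Of the pericyte and smooth muscle genes, Vtn and Cspg4 were lower and the other 4 of 6 were not called (5 were lower in the limma fit), and the choroid plexus transthyretin gene Ttr was 4.79-fold lower.

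RNAs known to stay in the nucleus were lower in TRAP. Of 12 tested nuclear long noncoding RNAs, 9 were lower and none was higher by the edgeR test (median -1.51), while 3 were not called. That median lay between those of neuronal (-1.68) and oligodendrocytic markers (-1.39). Retention in the nucleus and origin in untagged cells cannot be told apart here, and neither was tested. Meg3 was one of the most abundant RNAs of the Input, at 14517, 14606, 18536, and 18189 CPM, and stood at 4343, 3907, 7215, and 4592 CPM in TRAP (3.36-fold lower, adjusted p = 7.32e-10). Malat1, at chr19:5795690-5802671, was at 4348, 2846, 4071, and 3614 CPM in Input and 520, 530, 714, and 599 CPM in TRAP (6.27-fold lower, adjusted p = 2.40e-11). The groups did not overlap for either. Host genes of small nucleolar RNAs, whose spliced transcripts are translated poorly, were lower in 7 of 11 (median -1.17), with Gas5 at 111 to 123 CPM in Input and 45.6 to 64.4 CPM in TRAP (log2 -1.10, and -0.99 without animal 180). Without animal 180 only 4 of these 11 host genes were lower, and 5 without animal 182. Genes that the deposited annotation labels miscRNA were lower in 244 of 606 cases and higher in 27 (median -1.17). Of all genes, 25.3% were lower and 20.4% higher.

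Among housekeeping groups, ribosomal protein and oxidative phosphorylation genes stayed near 0, while translation factors lay above it. Of 80 cytosolic ribosomal protein genes, 71 were not called, 8 were higher, and Rpl22l1 was lower (median 0.14, and -0.18 with total counts alone, where 4 were higher and 4 lower). Of 86 nuclear genes of oxidative phosphorylation, 80 were not called, 5 were higher, and Ndufaf4 was lower (median 0.20, and -0.12 with total counts alone, where 2 were higher and 4 lower), and 8 were higher without animal 180. The call for Rpl22l1 was lost without animal 180 (log2 -0.91). Translation factors had 6 of 20 higher (30%, against 20.4% of all genes) and Pabpc1 lower (median 0.76). With total counts alone and in the limma fit, 2 were higher. Eef1a1, the elongation factor that delivers transfer RNA, went from 464 to 826 CPM in Input to 1342 to 1500 CPM in TRAP (2.26-fold higher, and log2 0.86 with total counts alone), and the helicase gene Eif4a1 was 3.45-fold higher. Pabpc1, the cytoplasmic poly(A)-binding protein gene, moved against its group, from 1040, 834, 476, and 569 CPM to 339, 288, 183, and 220 CPM (2.78-fold lower, adjusted p = 2.01e-08).

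Genes of ex vivo activation were examined because microglia can switch them on during dissociation. Of 33 tested, 18 were higher (54.5%, against 20.4% of all genes), 4 were lower (12.1%, against 25.3%), and 11 were not called. The median was 1.15, and 2 genes were lower without animal 180 or without animal 182. The 4 lower genes were Fosb, Nr4a1, Nfkbiz, and Fos, of which Fosb, Nr4a1, and Fos are activity-dependent factors also found in neurons. Nr4a1 was at 113, 152, 126, and 112 CPM in Input and 42.0, 36.5, 42.3, and 36.1 CPM in TRAP, without overlap (3.19-fold lower, adjusted p = 3.46e-07). Fos was at 26.5, 25.5, 15.2, and 12.0 CPM in Input and 11.1, 8.11, 19.0, and 3.5 CPM in TRAP, so that animal 181 went up while the others went down. The calls for Fos and Fosb were fragile: Fos was lost without animal 179 (adjusted p = 0.107), 180 (log2 -0.86), or 182 (log2 -0.88), and Fosb without animal 180 (-1.39) or 182 (-1.51) and in the fit without pairing (-1.30).

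Rhob, a small GTPase gene, was the most abundant gene of that list to be higher, at 137 to 200 CPM in Input and 1710 to 2119 CPM in TRAP (11.1-fold, adjusted p = 8.53e-13), and Ier5 was 8.85-fold higher. The chemokine genes were low throughout. Ccl4 was under 1 CPM in every Input library and at 14.2, 2.39, 10.6, and 9.11 CPM in TRAP, and Ccl2 had counts in 1 Input library only and was at 3.79, 3.82, 18.5, and 2.10 CPM in TRAP. Heat shock genes were higher in 5 of 12 cases (41.7%, against 20.4% of all genes, median 0.84). Hspa8 and Hspa5 led these in abundance, at 2.72-fold and 3.41-fold, while Hsp90aa1 was not called at log2 -0.57.

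Of 15 interferon-response genes, 9 were higher (60%, against 20.4% of all genes, median 1.51). Rsad2 and Ifit1 were lower (13.3%, against 25.3% of all genes). Bst2, the viral tether tetherin, rose from 4.43 to 7.32 CPM in Input to 81.6 to 113 CPM in TRAP (15.8-fold). Rsad2, which encodes viperin, went from 83.7, 71.3, 56.1, and 77.7 CPM to 21.8, 18.6, 24.2, and 32.6 CPM (3.01-fold lower, adjusted p = 8.99e-06). Ifit1 was at log2 -0.88 without animal 182 and was then not called. Of 9 genes of the integrated stress response, Atf4 and Sesn2 were higher and Vldlr and Asns were lower (median -0.62). Each direction held 22.2% of the list, near the 20.4% higher and 25.3% lower of all genes. Without animal 180 the calls for Atf4 (log2 0.99), Sesn2 (adjusted p = 0.261), and Asns (log2 -0.85) were lost. In the plot of list medians by animal, the homeostatic, microglial, border macrophage, complement, and lysosomal lists lay at 3.42 or more in every animal and the other lists at 2.90 or less.

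**Figure D4:**
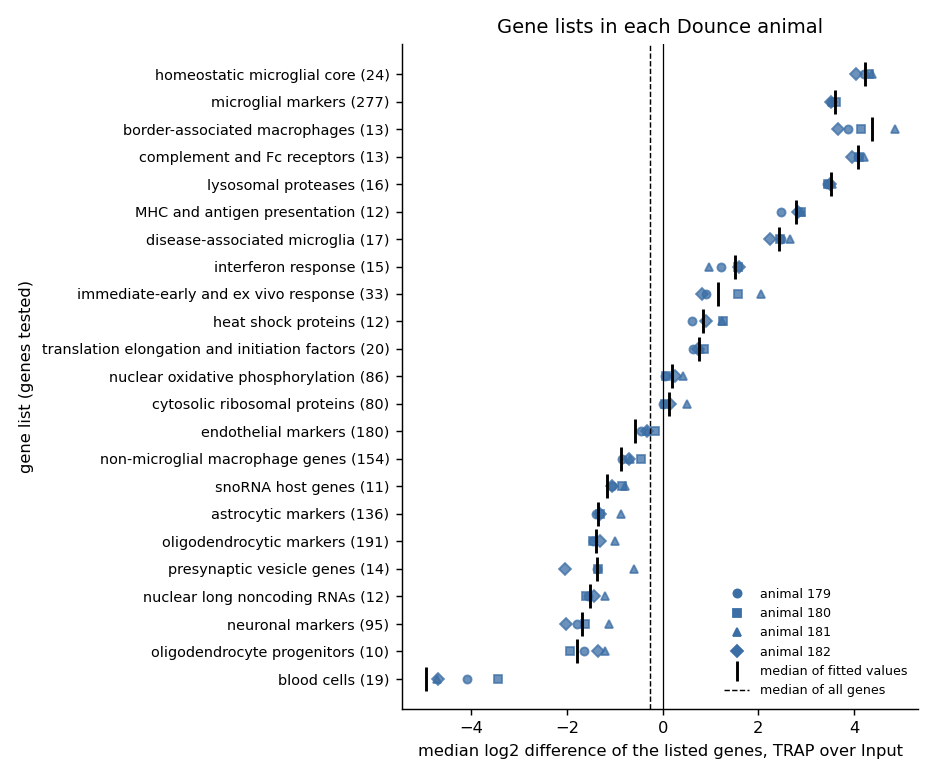
Median log2 difference of TRAP over Input for 23 gene lists, with 1 marker shape per animal and a black bar at the median of the fitted values; numbers in parentheses are genes tested and the dashed line is the median of all genes (-0.25). Microglial, border-associated macrophage, complement, and lysosomal lists lie at 3 or more, blood cells near -5, and animal 181 lies closest to 0 for neuronal, astrocytic, and oligodendrocytic markers.

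The last comparison asked whether the TRAP-over-Input difference in Dounce brains differed from that in the other preparations, by an interaction in 1 edgeR fit of all 32 libraries. The Dounce animals gave no library of another preparation, so preparation, animal, and any batch of library making cannot be told apart. RNA quality differed with preparation as well. The paper reports a lower mean RNA integrity number and a lower RNA yield for Dounce-Input than for the other Inputs. A whole brain was needed for Dounce-Input RNA. Gene body coverage had more end bias in Dounce and Tissue than in the enzymatic groups. The part of RNA quality in any difference given here was not tested. The comparisons with the Cell (-) and Cell (+) suspensions share the Dounce libraries and the 4 suspension animals and are not independent of each other. Against Tissue, the Dounce difference was greater for 1791 of 15894 genes (11.3%) and smaller for 2999 (18.9%). Against Cell (-) Inhibitors it was greater for 4846 (30.5%) and smaller for 1048 (6.59%), and against Cell (+) Inhibitors it was greater for 4982 (31.3%) and smaller for 914 (5.75%). The median difference of all genes between preparations was -0.25, 0.60, and 0.61 respectively. The split against the enzymatic suspensions rested on the scaling: the share of called genes that were greater was 82.2% and 84.5%, but 62.5% and 66.2% with DESeq2 size factors, and 53.6% and 57.5% when a Tissue-Input library served as the reference of the scaling. Against Tissue those shares were 37.4%, 24.4%, and 31.1%. Without animal 181, 1849 genes were greater and 2881 smaller against Cell (-) Inhibitors, and 2011 and 2698 against Cell (+) Inhibitors. The Dounce-TRAP library of animal 181 is the default reference of the scaling, so leaving that animal out also changes the reference. Among genes with at least 10 counts in every library of at least 4 groups, 1846 were greater and 2645 smaller against Cell (-) Inhibitors. Against Cell (+) Inhibitors these were 2021 and 2548. Lists are therefore given relative to the median of all genes.

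Relative to that median, the homeostatic microglial list was 0.22 lower in Dounce than in Tissue, with 1 of its 24 genes called greater and 2 smaller. Lysosomal genes were 1.17 higher, with 5 of 16 called greater and none smaller by the edgeR test. Ex vivo activation genes were 0.98 higher than in Tissue, with 10 of 36 called greater and 5 smaller. Neuronal markers were 1.35 lower and 76 of 97 were called smaller, so that they were reduced by TRAP in Dounce brains more than in Tissue, where their median TRAP-over-Input log2 difference was -0.10. Border macrophage genes had no called interaction with Tissue among 13. The ex vivo activation list held 0.141 to 0.173% of counts in Tissue-Input and 0.144 to 0.187% in Tissue-TRAP. In Dounce it held less of the Input, 0.0831 to 0.104%, and more of the TRAP libraries, 0.3198 to 0.3544%. The parts of the Input level and of the microglial share of TRAP in its interaction were not tested.

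Named genes of the interaction with Tissue show the size of these differences. Ier5, an early response gene, was at 25.4 ± 3.25 CPM in Dounce-Input and 221 ± 29.7 CPM in Dounce-TRAP (SD, n = 4 each), and at 76.2 ± 5.16 and 77.0 ± 11.9 CPM in the Tissue fractions, a log2 interaction of 3.11 (adjusted p = 9.45e-12). Marcks, a membrane-associated actin regulator, was at 171 ± 32.2 and 2588 ± 288 CPM in Dounce and at 199 ± 11.6 and 379 ± 37.1 CPM in Tissue, an interaction of 3.00 (adjusted p = 5.04e-11). Both genes had similar or lower Input levels in Dounce than in Tissue and far higher TRAP levels. Atp8a2, Dyrk2, and Nrip1 had interactions of 3.24, 3.12, and 3.10. Xkrx had the greatest, 3.98, but its Dounce-TRAP level of 87.5 ± 75.6 CPM was spread widely between animals. Gng13, a G protein gamma subunit gene, was at 53.7 ± 7.38 and 45.9 ± 13.9 CPM in the Tissue fractions and at 5.78 ± 1.13 CPM in Dounce-Input, with 3 counts or fewer in every Dounce-TRAP library.

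Against the enzymatic suspensions, homeostatic microglial genes were 1.39 higher in Dounce relative to all genes for both, and oligodendrocytic markers were 1.52 higher than in Cell (-) Inhibitors and 1.90 higher than in Cell (+) Inhibitors. The Input levels differed beside them: microglial markers were 1.42 to 1.87% of counts in Dounce-Input and 0.567 to 0.592% in Tissue-Input, against 4.43 to 6.21% and 4.77 to 6.64% in the enzymatic Inputs. In TRAP they were 17.1 to 19.0% for Dounce, 5.03 to 5.75% for Tissue, and up to 21.3% and 20.7% for the enzymatic suspensions. The part of the Input composition in these interactions was not tested. Ex vivo activation genes were 0.42 lower than in Cell (-) Inhibitors and 0.79 higher than in Cell (+) Inhibitors, relative to all genes. These are differences between TRAP-over-Input ratios, not TRAP levels. The list held 0.3198 to 0.3544% of counts in Dounce-TRAP and 0.3186 to 0.36% in Cell (+) Inhibitors TRAP. In Cell (-) Inhibitors TRAP it held 2.849 to 4.599%. Its Input shares were 0.0831 to 0.104% in Dounce, 0.919 to 1.577% in Cell (-) Inhibitors, and 0.222 to 0.2704% in Cell (+) Inhibitors. The paper reports that Dounce dissociation and the inhibitors both prevented ex vivo activation. Among the genes with the largest interactions against both suspensions was Cldn2, a claudin of the choroid plexus epithelium, at 58.3 ± 20.8 CPM in Cell (-) Inhibitors Input and 0.326 ± 0.270 CPM in Dounce-Input, but its log2 interaction of 6.21 against Cell (-) Inhibitors fell to 0.25 without animal 179 and was then not called.

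**Figure D5:**
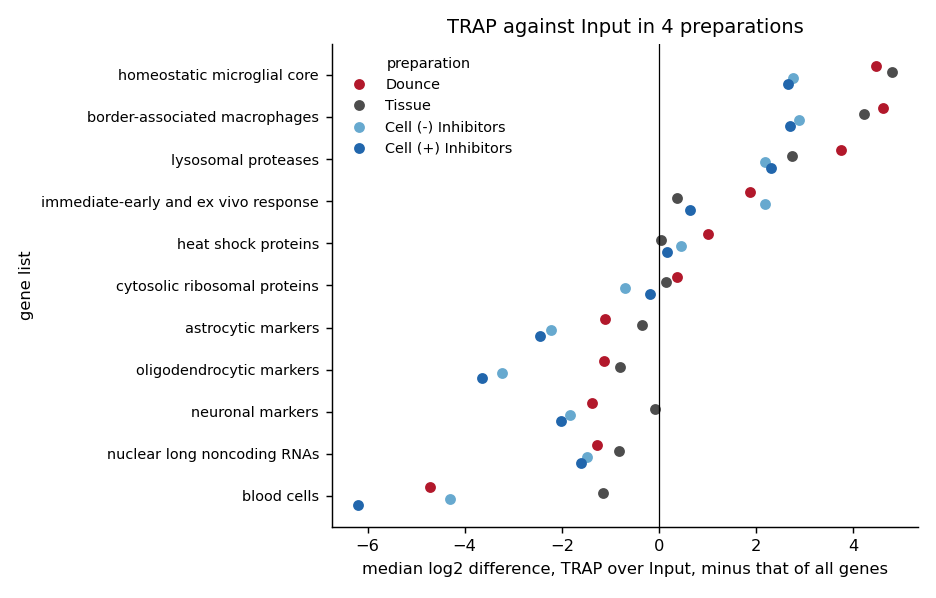
Median log2 difference of TRAP over Input for 11 gene lists in 4 preparations, each minus the median of all genes in that preparation, from 1 fit of 32 libraries. For the homeostatic microglial list Dounce lies just below Tissue and above both enzymatic suspensions, for lysosomal genes it lies above the other 3 preparations, and for neuronal markers it lies well below Tissue.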

How the data were processed

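RNA-Seq counts of poly(A) RNA in 4 Dounce-Input and 4 Dounce-TRAP libraries were analysed, with the other 24 libraries of the table for the interactions. According to the methods of the study, the authors aligned reads to mm10 and quantified genes in Strand NGS, with duplicate reads removed. The deposited raw columns hold expected counts (20.8% of values are whole), which were rounded to whole numbers here, and the deposited normalized columns hold log2 values that the authors scaled with DESeq2. DESeq2 is also the tool named in the submitters' processing notes, without a version. A table of the sort comparison and an earlier table without Dounce libraries were not used.

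Genes with more than 5 counts in every library of at least 1 group were tested, 14338 of 16000 for the 8 libraries and 15894 for all 32. The main test was edgeR 4.0.16 (R 4.3.3) quasi-likelihood with TMM scaling and animal as a block, with Benjamini-Hochberg adjustment; calls required FDR under 0.1 and over 2-fold, as in the study's thresholds. Fits with limma 3.58.1 and DESeq2 1.42.0 were alternatives. The Input and TRAP libraries with 1 number come from the same animal, and their deviations from the group means correlated at 0.119, 0.117, 0.155, and 0.0295. The main fit leaves 3 residual degrees of freedom, and the quasi-likelihood test also borrows the spread of other genes. Each SE of a log2 difference is that difference divided by the square root of the test's F value. The SE and p-values therefore do not measure the spread of the 4 animals alone. CPM values use a scaled library size, and the depth of 2471450 to 9751830 counts limits genes of a few CPM. Counts of 23 genes whose symbols had been turned into dates were named again through their Entrez identifiers. Tests were checked on simulated data in which a small set of well-counted genes changed, equally many up and down. Such data do not check the scaling when many genes change, or genes of low counts.

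Marker lists of cell types and macrophages came from the study's supplement and the others from general knowledge of the field. The members and lists were chosen with earlier results of these data known. Named genes were the driver and tag genes, the 4 most abundant and the up to 4 most changed genes called in each direction of each list, the 12 highest and 12 lowest called genes with the same direction in 4 animals and at least 20 CPM, and the 6 largest interactions in each direction. Genes named outside that rule, to account for every exception of a list or as common identifiers, are P2ry12, Tmem119, Sall1, Ptprc, Sparc, Sgk1, C3, Ciita, Csf1, Lgals3, and Spp1, and were chosen after their values were seen. Some genes that the rule takes are not reported here. A group with 3 counts or fewer in every library received no fold change other than a bound.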

Additional observations from a re-analysis of the deposited data

Results flagged for a closer look

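Among 310 sets of 4 values, those of the genes named in the text and of the list shares in Dounce-Input or Dounce-TRAP, 26 had 1 library far from the other 3 by Dixon's ratio. Chance marks about 1 in 20 such groups if values are normally distributed, which counts near 0 are not. Where all other libraries were at 0, the ratio is at its largest whatever the remaining value. That holds for Camp, Lcn2, Retnlg, Hp, and Gng13 in TRAP and for Ccl2 in Input. Animal 181 was the library apart in 15 of the 26, the highest in 10 and the lowest in 5. Its Input library was the lowest for Csf1r (266 CPM beside 500 to 537), Fabp5 (17.6 CPM), and the endoglin gene Eng (6.62 CPM beside 13.4 to 14.7), and the highest for the neutrophil genes Camp (130 CPM beside 11.1 to 25.4) and Retnlg (58.4 CPM beside 8.76 to 17.1). Its TRAP library was the lowest for Tgfbr2 (570 CPM beside 1068 to 1090) and Atp8a2 (28.7 CPM beside 90.4 to 96.7). It was the highest in TRAP for the secreted protein gene Spp1 (23.8 CPM), the pericyte gene Vtn (45 CPM beside 14.7 to 18.1), Ccl2 (18.5 CPM), and Retnlg (0.882 CPM beside 0). The list shares were also highest in the TRAP library of animal 181 for cerebellar genes (0.107% of counts beside 0.0487 to 0.0567%), pericytes (0.00728%), ependymal and choroid plexus genes (0.0382%), and nuclear long noncoding RNAs (1.46% beside 0.901 to 0.991%).

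The other animals stood apart in 11 sets. Animal 179 was the highest for Cbr2 in Input (4.22 CPM), for Camp and Lcn2 in TRAP (0.632 CPM each beside 0), and for the Input shares of blood cells (2.26%) and of snoRNA host genes (0.0281%). Animal 180 was the lowest for the TRAP shares of complement and Fc receptor genes (1.52% beside 1.66 to 1.67%) and lysosomal proteases (5.57%), and the highest in TRAP for Hp (0.955 CPM beside 0) and Gng13 (0.477 CPM beside 0). Animal 182 was the highest for Rhog in TRAP (198 CPM beside 176 to 179) and for Ccl2 in Input (0.922 CPM beside 0). No cause was tested for any of these.

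The TRAP-over-Input difference of single genes differed between Dounce and another preparation in the interaction test. Against Tissue it was greater in Dounce by log2 3.98 for Xkrx, 3.24 for Atp8a2, 3.12 for Dyrk2, 3.11 for Ier5, 3.10 for Nrip1, and 3.00 for Marcks (edgeR's quasi-likelihood test). It was smaller for Paqr9 (adjusted p = 4.88e-06), Lcn2 (2.40e-05), Gng13 (1.47e-05), Fcrl1 (4.62e-04), Ltf (0.00605), and Sncg (0.00662), for which a group had 3 counts or fewer in every library, so no fold is given. Without the animal block Ltf was not called. Against Cell (-) Inhibitors the difference was greater by 6.21 for Cldn2, 5.52 for Calml4, 5.48 for Tmem72, and 5.45 for Cldn1, genes with under 3 CPM on average in both Dounce fractions, and by an unstated amount for Krt8 (adjusted p = 0.0023) and Krt18 (0.0103). The calls for Cldn2 and Tmem72 rested on 1 animal each: Cldn2 was at 0.25 without animal 179 and Tmem72 at -0.32 without animal 180. It was smaller for Cgn (log2 difference -4.14) and smaller for Col3a1 (adjusted p = 0.00218), Lmcd1 (0.033), Emcn (0.0192), Adamtsl3 (0.0905), and Fzd9 (0.0737). Against Cell (+) Inhibitors it was greater by 6.44 for Cldn2, 6.23 for Klk6, 6.20 for Tmem72, and 6.12 for Cldn1, and greater for Samd11 (adjusted p = 4.78e-07) and Ngp (8.94e-04). Cldn2 was at 0.47 without animal 179 and Tmem72 at 0.39 without animal 180, and neither was then called. It was smaller for Cgn (log2 difference -4.50), Lmcd1 (adjusted p = 0.0327), Emcn (0.0112), Sox17 (0.0827), Adamtsl3 (0.0856), and Fzd9 (0.0726). In the cell suspensions the Input level of these last 5 genes was 20.3 to 53.3 CPM on average and in Dounce-Input it was under 2 CPM.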

How the results depend on the processing

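The numbers of genes called in the Dounce comparison stayed within 1.5 times of 2924 higher and 3632 lower under every alternative. Genes called higher ran from 2197 with total counts alone to 3191 in the fit of all 32 libraries. Genes called lower ran from 2487 with at least 10 counts in every library to 4936 in the limma fit. Without the replicate block of animal pairing 3042 genes were higher and 3549 lower, and among the genes named in the text only Ccr2, Fos, and Fosb lost their calls by dropping it. Leaving out 1 animal gave 2824 to 3075 higher and 3218 to 3434 lower. The sign of a median turned for 4 lists: endothelial markers were at 0.29 with at least 10 counts in every library, the 11 defining endothelial genes at 0.13 without the block, 0.14 in the fit of 32 libraries, and 1.22 with at least 10 counts, against -0.59, ribosomal proteins at -0.18 with total counts alone and -0.11 in the limma fit, and oxidative phosphorylation was at -0.12 with total counts alone and -0.050 in the limma fit. The filter leaves out the low genes by its construction and moves the median of all genes by 0.22, and total counts and limma lower it by 0.32 and 0.29. Interactions were more sensitive. Against Tissue, 1089 genes were greater with at least 10 counts in every library of at least 4 groups, and leaving out 1 Dounce animal gave 1245 to 1893 greater and 2829 to 4136 smaller. Against Cell (-) Inhibitors, greater genes numbered 3149 with DESeq2 size factors, 1846 with the strict filter, and 2624 with a Tissue-Input reference library, an alternative chosen after seeing the data, and smaller genes numbered 1886, 2645, 2272, and 1952 in the DESeq2 test; leaving out 1 animal gave 1849 to 4961 and 1034 to 2881. Against Cell (+) Inhibitors, greater genes numbered 2021 with the strict filter and 2862 with the Tissue-Input reference, and smaller genes numbered 1728 with size factors, 2548, 2118, and 1789 in the DESeq2 test; leaving out 1 animal gave 2011 to 5061 and 922 to 2698. The default scaling of the 32-library fit takes the Dounce-TRAP library of animal 181 as its reference, so leaving that animal out also changes the reference. The interaction of Tmem72 against Cell (-) Inhibitors ran from -0.32 without animal 180 to 7.92 without animal 179. The depth of the TRAP libraries limits genes under a few CPM most.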

Other observations

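Shorter lists of defining markers gave counts that stand beside those of the longer lists. Of 15 defining neuronal genes, 12 were lower in Dounce-TRAP and 3 were not called, with a median log2 difference of -1.60. Of 12 defining oligodendrocyte genes, 10 were lower and 2 were not called (median -1.70). Of 12 defining astrocyte genes, 7 were lower, 4 were not called, and Glul was higher (median -1.44). Of 3 tested genes of ependymal cells and choroid plexus, Ttr and Enpp2 were lower and Foxj1 was not called. Mitochondrially encoded genes were not in the table.

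By gene class, 37 of 104 tested pseudogenes were lower in Dounce-TRAP and 9 were higher, with a median of -1.03. Of all genes, 25.3% were lower and 20.4% higher, and protein-coding genes had a median of -0.19. The log2 differences of the animals correlated with each other at 0.706 to 0.795 across genes, which are not independent replicates.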
